A study of Mus musculus with 19 samples.

Results

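The expression of 10 genes of the NRF2 and glutathione defense, a set of antioxidant genes, was examined in breast cancer cells recovered from tumors of lean and obese mice. The genes were Nfe2l2, Keap1, Gclc, Gclm, Gsr, Txnrd1, Srxn1, Prdx1, Nqo1 and Gpx4. They were taken by symbol from a table of 39017 genes, and all 10 were among the 16352 genes that passed the filter on low counts. The cells were E0771, which derive from a mammary carcinoma of C57BL/6 mice, and they carried the red fluorescent protein mCherry. They had grown as tumors in a mammary fat pad of c57bl6 mice. Tumors were dissociated, cells positive for mCherry were sorted by flow cytometry, and their total RNA was sequenced. Hosts were lean (named Chow in the sample names) or obese (named HFD), and tumors were taken at midpoint, day 14, or at endpoint, day 21. Neither the age of the mice nor an engineered allele in the host is given in the sources used here. All groups share the cell line, the mCherry label and the sort, so the line stands for a single tumor model. Values of 18 tumors were used, from 4 lean and 5 obese hosts at each of the time points.

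NRF2, the product of Nfe2l2, is a transcription factor that binds antioxidant response elements with small MAF proteins and turns on genes for glutathione synthesis, thioredoxin recycling and quinone reduction. KEAP1 holds NRF2 for ubiquitination by a CUL3 ligase in unstressed cells, and oxidants or electrophiles that modify KEAP1 let NRF2 build up. Much of this control acts on the NRF2 protein, which RNA counts do not measure. In breast and other carcinomas the pathway is known for helping cells to survive oxidative stress and drug treatment, and glutathione is the cofactor with which GPX4 removes lipid peroxides.

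The antioxidant response element is the sequence through which NRF2 acts, so the promoters of the 10 genes were searched for its core, TGACNNNGC, on both strands. The search covered 300 bases around each RefSeq start site (250 upstream and 50 downstream, build GRCm38.p6, the mm10 assembly). Windows were at hand for 8 genes, all but Gclc and Gsr, and 5 of the 8 held the core. Among all 27025 genes with such windows, 14.0% held it. The 5 sites are shown because they separate these genes into those with and without the core close to the start. Each is written 5′ to 3′ on the strand that carries the core, which is in capitals, with 10 bases on either side. A match describes the letters only.
Nfe2l2, chr2:75704885-75704913: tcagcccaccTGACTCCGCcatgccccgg
Gclm, chr3:122245413-122245441: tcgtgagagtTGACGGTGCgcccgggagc
Prdx1, chr4:116685456-116685484: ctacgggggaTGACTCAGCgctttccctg
Srxn1, chr2:152105542-152105570: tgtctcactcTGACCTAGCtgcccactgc
Txnrd1, chr10:82859104-82859132: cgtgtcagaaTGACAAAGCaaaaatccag

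Counted along the coding strand from the start site, the match began 240 bases upstream in Nfe2l2, where the core is read on the coding strand. It is read on the opposite strand in Gclm (from 134 bases upstream), Prdx1 (133 bases upstream), Txnrd1 (92 bases upstream) and Srxn1 (29 bases downstream, in the transcribed part). The windows of Keap1, Nqo1 and Gpx4 did not hold these letters. Nor did the windows at other start sites of Txnrd1 (chr10:82833701-82834000 and chr10:82860091-82860390). The 250 bases upstream of Nfe2l2 and Gclm follow, because both transcripts rose with time in both hosts as fitted, Nfe2l2 also and Gclm no longer once GC content and length were taken out. They are written on the coding strand with the core, or its reverse complement, in capitals.
Nfe2l2, chr2:75704664-75704913, minus strand: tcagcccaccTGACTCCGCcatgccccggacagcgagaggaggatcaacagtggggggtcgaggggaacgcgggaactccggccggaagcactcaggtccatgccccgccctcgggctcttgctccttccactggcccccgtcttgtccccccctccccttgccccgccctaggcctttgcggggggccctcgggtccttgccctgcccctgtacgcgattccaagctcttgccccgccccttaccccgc
Gclm, chr3:122245307-122245556, plus strand: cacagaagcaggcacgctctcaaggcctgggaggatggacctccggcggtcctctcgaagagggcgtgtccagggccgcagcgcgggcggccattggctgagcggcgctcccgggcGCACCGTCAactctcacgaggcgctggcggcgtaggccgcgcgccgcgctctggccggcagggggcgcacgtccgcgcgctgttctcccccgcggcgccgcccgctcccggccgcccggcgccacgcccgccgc

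Library totals lay between 44174080 and 56996252 counts, and a further library, lean endpoint replicate 4, was left out because its 11889188 counts included 0 outside chromosomes 1 to 5. Levels are given as CPM, which are counts scaled to library size. Levels relative to the mean of the 18 libraries depended on the GC content of the gene. The slope of log2 CPM over a span of 10 percentage points of GC was 0.115 to 0.456 in lean midpoint, 0.34 to 1.55 in obese midpoint, -0.895 to -0.0647 in lean endpoint and -0.905 to -0.431 in obese endpoint libraries. The slope thus moved with time in both hosts. Between diets its medians were 0.251 (lean) and 1.04 (obese) at midpoint but -0.677 and -0.754 at endpoint, with ranges that overlapped at each time. What part the slope has in the differences below was not tested. Differences are therefore given as fitted and, where stated, also after the trends with GC content and length were taken out of each library. A difference with no corrected value beside it is as fitted only. The share of counts from the mitochondrial genome was 8.95% to 12.3%, 5.79% to 8.06%, 17.1% to 44.7% and 17.1% to 24.4% in the same groups, with 44.7% in lean endpoint replicate 1. Of 7 epithelial markers, Krt8 averaged 31.1 CPM, whereas Krt18, Krt7, Krt19, Cdh1, Epcam and Cldn7 averaged under 1 CPM each, so most defining markers of a carcinoma were near 0 in these sorted cells. The epithelial sum, mostly Krt8, was at midpoint 22.9 to 39.8 CPM (lean) and 35.2 to 66 CPM (obese), and 21.7 to 31.6 CPM and 18.2 to 23.7 CPM at endpoint, so that it did not overlap between times in obese hosts. The 16 macrophage markers had median sums of 592 (lean) and 299 CPM (obese) at midpoint, and of 326 and 224 CPM at endpoint, with a range of 149 to 803 CPM over the 18 libraries. The sum of 6 adipocyte markers, mostly Fabp4, had medians of 7.18 and 4.93 CPM at midpoint and of 32.4 and 12.9 CPM at endpoint, in the same order, with no overlap between times in either host. The 12 fibroblast markers had medians of 2659 and 1984 CPM at midpoint and 2202 and 2778 CPM at endpoint in lean and obese hosts, with ranges that overlapped. The part of these markers in the differences between times was not tested.

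The counting could blur 3 of the genes. Of the 50-base stretches in the longest coding transcript, 61.7% of those of Gpx4 also occur in Gpx4-ps2 or AC122253.3, 10.9% of those of Prdx1 in Gm15974, Gm21399 or Gm7204, and 10.4% of those of Keap1 in the antisense gene Gm16754. The levels of Gpx4 in particular are uncertain. Gclm shares 296 exonic bases with Gm17494 on the other strand and 244 with Gm6061. For Nfe2l2, Nqo1, Gclc, Txnrd1, Srxn1 and Gsr the share was 0.0%.

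As fitted, the main contrast within the set was between transcripts that moved with time and transcripts that did not pass. From midpoint to endpoint Nfe2l2 and Gclc rose in both hosts, and so did Gclm, except after the correction for GC content and length. In obese hosts Txnrd1 rose, and Keap1 and Gpx4 fell as fitted. After that correction Gpx4 no longer passed, and Keap1 no longer passed when GC content alone was taken out. Without the 3 midpoint libraries of steepest GC trend, only replicates 1 and 4 stayed in the obese midpoint group. The rise of Txnrd1 then passed in lean hosts and not in obese hosts. All groups share an estimate of the spread. The lean log2 value of Txnrd1 stayed at 0.55 there, while its SE went from 0.3 to 0.17. Gsr, Srxn1, Prdx1 and Nqo1 did not pass the test in either host as fitted. After the correction all but Gsr passed in obese hosts, where Srxn1 rose and Prdx1 and Nqo1 fell. In lean hosts Srxn1 then rose (log2 0.51) and Prdx1 fell (log2 -0.93), and both passed. In obese against lean hosts at midpoint, Nfe2l2 and Gclc were lower and Keap1 and Gpx4 higher as fitted. Of these 4 only Nfe2l2 passed after the correction, and none without the 3 midpoint libraries of steepest GC trend. Nqo1 and Prdx1 did not pass as fitted but were higher in obese hosts after the correction (log2 0.97 each). No gene of the set passed the test between obese and lean hosts at endpoint. A change in bulk RNA cannot tell fewer cells of a type from less RNA per cell, and p-values measure the spread between tumors.

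Genes were called at a Benjamini-Hochberg adjusted p under 0.05 over all 16352 genes, from the quasi-likelihood test of edgeR. Between diets at midpoint 4 of the 10 genes were called, against 29.5% of all genes; 2 were higher in obese hosts, against 16.7%, and 2 lower, against 12.8%. The midpoint count became 0 of 10, with 0 genes of the whole table called, in a fit of the midpoint groups alone, with the mean of the 9 leukocyte markers as a covariate, and without obese midpoint 2, 3 and 5. In the first and second of these the log2 differences stayed about as large as in the fit of all groups, while their edgeR adjusted p lay between 0.0921 and 0.136. Nfe2l2 stood at -1.12 and -0.99, Gclc at -0.71 and -0.64, Keap1 at 0.44 and 0.50, and Gpx4 at 0.86 and 0.98. Without obese midpoint 2, 3 and 5, the libraries with the steepest GC trend, they were smaller, at -0.51 for Nfe2l2, -0.24 for Gclc, 0.15 for Keap1 and 0.31 for Gpx4 (adjusted p from 0.819 to 0.844). Only obese midpoint replicates 1 and 4 remained in that group, so this fit is weak. They were the highest of the group for Nfe2l2 (148 and 127 CPM) and the lowest for Gpx4 (15.6 and 14.8 CPM). The leukocyte markers summed to 146 to 290.2 CPM in lean and 114 to 241 CPM in obese midpoint libraries. At endpoint 0 of 10 were called, against 0.00612% of all genes, which is 1 gene. For the diet by time interaction, the change of the diet difference from midpoint to endpoint, 0 of 10 were called, against 0.0% of all genes. With time in lean hosts 3 of 10 rose and 0 fell, against 30.9% called among all genes (21.4% risen, 9.5% fallen). With time in obese hosts 4 rose and 2 fell, against 73.9% called (37.8% risen, 36.1% fallen). The shares of the 10 genes called were thus not far from those of all genes in each comparison. The median log2 difference of the 10 was 0.04 between diets at midpoint and -0.06 with time in obese hosts, against 0.0 for all genes in both, and 0.37 with time in lean hosts, against 0.04. After the GC and length correction, 2 of 10 genes were higher and 1 lower in obese hosts at midpoint, against 7.23% and 3.17% of all genes (10.4% called). With time 3 rose and 1 fell in lean hosts, against 11.7% and 11.3% (23.0% called), and 4 rose and 4 fell in obese hosts, against 24.6% and 31.8% (56.4% called).

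**Figure D1:**
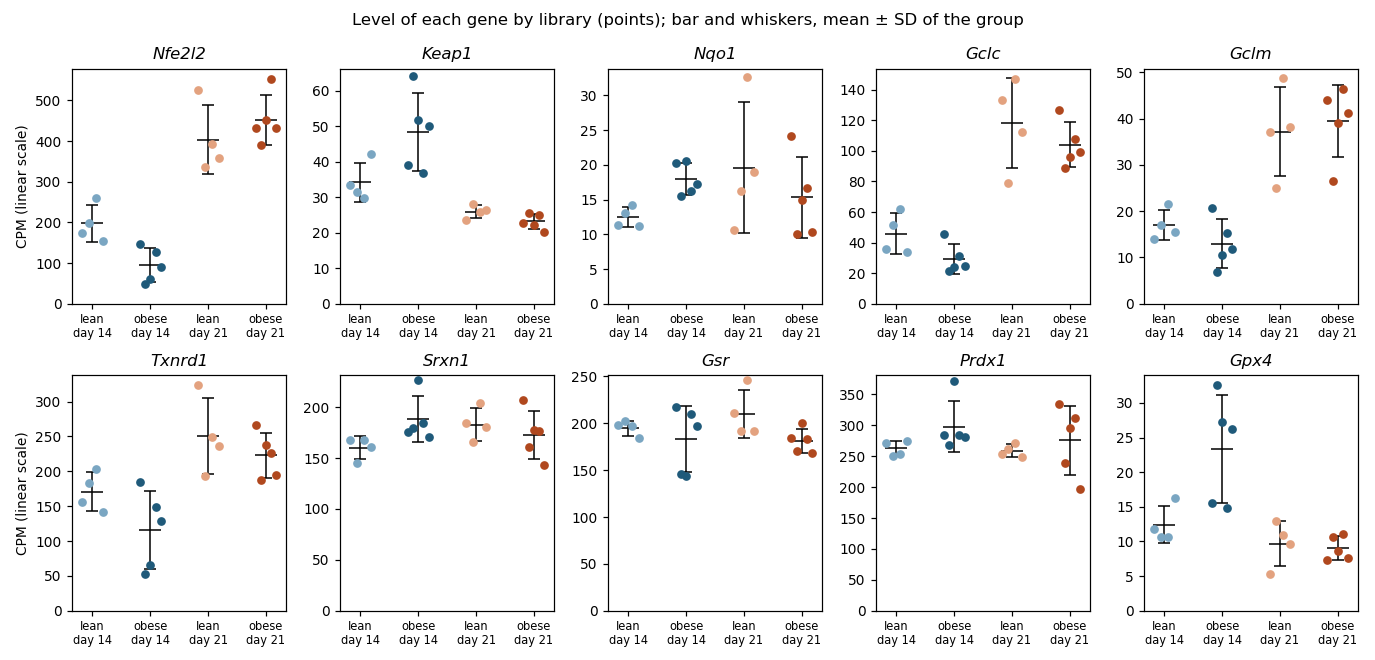
Level of each of the 10 genes in CPM on a linear axis from 0, with 1 point per library, in lean and obese hosts at day 14 and day 21; bars and whiskers are the group mean ± SD (n = 4, 5, 4 and 5). Nfe2l2, Gclc and Gclm sit higher at day 21 than at day 14 in both hosts, with no overlap, whereas Gsr and Prdx1 overlap between all 4 groups.

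Per kilobase of transcript, so that genes can be compared, mean levels over the 18 libraries were highest for Prdx1, at 90.4 CPM per kb. Nfe2l2 (75.2), Gsr (69.4), Srxn1 (62.6) and Txnrd1 (55) followed, with ranges over libraries that overlapped, from 13 to 146 CPM per kb for Nfe2l2 and from 50.8 to 80.6 for Srxn1. A lower tier held Gclc (21.4), Nqo1 (10.5), Gpx4 (8.06), Keap1 (7.44) and Gclm (4.8). The ranges of neighbours overlapped in this tier too. Gclc exceeded Gclm, its partner subunit, in every library on this scale, by 3.54 to 4.89 times in lean midpoint, 3.31 to 5.1 in obese midpoint, 4.76 to 5.81 in lean endpoint and 3.76 to 5.42 in obese endpoint libraries.

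Nfe2l2 encodes NRF2 itself (ENSMUSG00000015839, mm10 chr2:75675513-75704641, minus strand, GC content 46.8%). At midpoint its level was 175, 199, 261 and 155 CPM in the 4 lean libraries and 148, 49.5, 60.5, 127 and 90.3 CPM in the 5 obese libraries. At endpoint it was 525, 337, 392 and 359 CPM in lean and 431, 391, 452, 553 and 432 CPM in obese libraries. Every obese midpoint library lay below every lean midpoint library, every endpoint library lay above every midpoint library, and the diets overlapped at endpoint. The means were 198 ± 46.0 CPM (SD, n = 4) and 94.9 ± 42.0 CPM (n = 5) at midpoint, and 403 ± 84.5 CPM (n = 4) and 452 ± 60.8 CPM (n = 5) at endpoint, for lean and obese hosts in that order.

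The midpoint diet difference of Nfe2l2 was a log2 fold change of -1.06 ± 0.26 (SE; edgeR adjusted p = 0.0304), which is 0.48 times the lean level. The median of all genes with 45% to 50% GC was -0.39 in this comparison, and after the GC and length correction Nfe2l2 stood at -0.61 (adjusted p = 0.0326). Without obese midpoint 2, 3 and 5 the difference was -0.51 ± 0.22 and did not pass (adjusted p = 0.819). It no longer passed when lean midpoint replicate 2 (adjusted p = 0.114) or 3 (0.129) was left out, nor without obese midpoint replicate 2 (0.0886) or 3 (0.0907). In each of these 4 fits 0 genes of the whole table were called. With time Nfe2l2 rose 2.04-fold in lean hosts (log2 1.03 ± 0.28, adjusted p = 0.00912) and 4.76-fold in obese hosts (log2 2.25 ± 0.26, adjusted p = 6.8e-07). Corrected for GC and length these rises were 0.55 (adjusted p = 0.0205) and 1.31 (adjusted p = 1e-06). The lean rise missed the threshold without lean endpoint replicate 1, the library with the highest mitochondrial share (log2 0.84, adjusted p = 0.0519). The difference between the rises, the interaction, was 1.22 ± 0.37 and did not pass (edgeR adjusted p = 0.0983). DESeq2 called it (adjusted p = 0.0273), as did edgeR without obese midpoint replicate 1 (adjusted p = 0.0149).

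Keap1 encodes the adaptor that holds NRF2 for degradation (ENSMUSG00000003308, mm10 chr9:21229730-21239332, minus strand, GC content 58.0%). It was at 33.5, 31.5, 29.9 and 42.3 CPM in lean midpoint libraries and at 39.1, 64.1, 51.9, 36.8 and 50 CPM in obese midpoint libraries. Endpoint levels were 23.6, 28, 25.9 and 26.5 CPM in lean and 22.9, 25.5, 22.2, 25.0 and 20.3 CPM in obese libraries. Diets overlapped at both times, and all endpoint libraries lay below all midpoint libraries. In obese hosts Keap1 fell to 0.48 times its midpoint level (log2 -1.06 ± 0.16, edgeR adjusted p = 1.1e-05), close to the median of -1.09 for all genes above 55% GC. After the GC and length correction the value was -0.26 (adjusted p = 0.0383), and with GC content alone corrected it was -0.12 and did not pass (adjusted p = 0.327). In lean hosts the log2 change was -0.40 ± 0.18 and did not pass (adjusted p = 0.0914); it passed without obese midpoint replicate 2, a library of the other hosts (adjusted p = 0.0358).

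At midpoint Keap1 was 1.41-fold higher in obese hosts (log2 0.50 ± 0.17, edgeR adjusted p = 0.0394). This was below the median of 0.62 for genes above 55% GC, and the corrected value was 0.04 (adjusted p = 0.846). The call was lost in 8 of 18 fits that each left out 1 library, with adjusted p from 0.0522 to 0.155. The libraries were lean midpoint 1, 2 and 3, obese midpoint 2, 3 and 5, lean endpoint 2 and obese endpoint 4. The interaction was -0.66 ± 0.24 (edgeR adjusted p = 0.102), and passed without obese midpoint replicate 1 (adjusted p = 0.0273).

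Glutathione is made in successive steps, and the slower of them is run by glutamate-cysteine ligase, whose catalytic subunit is Gclc (ENSMUSG00000032350, mm10 chr9:77754535-77794485, plus strand, GC content 47.7%). Midpoint levels of Gclc were 36.0, 51.4, 62.2 and 33.9 CPM in lean and 45.9, 21.6, 23.9, 31.0 and 24.7 CPM in obese libraries. Endpoint levels were 133, 79.2, 147 and 112 CPM in lean and 127, 89.0, 96.0, 108 and 99.3 CPM in obese libraries. Obese midpoint replicate 1 lay among the lean libraries, the other 4 obese midpoint libraries lay below all of them, and all endpoint libraries were higher than all midpoint libraries. Gclc rose 2.57-fold in lean hosts (log2 1.36 ± 0.25, edgeR adjusted p = 0.00069) and 3.53-fold in obese hosts (log2 1.82 ± 0.23, adjusted p = 1.8e-06). Genes of the same GC class had medians of 0.32 and 0.77 in these comparisons, and the corrected rises of Gclc were 1.04 (adjusted p = 0.00064) and 1.10 (adjusted p = 7.4e-06). Both calls held in all 18 fits that left out 1 library, and the interaction was 0.46 ± 0.34 (adjusted p = 0.315).

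At midpoint Gclc was at 0.64 times the lean level in obese hosts (log2 -0.64 ± 0.24, edgeR adjusted p = 0.0481). The corrected value was -0.23 (adjusted p = 0.346). The call was lost in 13 of the 18 fits without 1 library, with adjusted p from 0.0509 to 0.176. These left out lean midpoint 2 or 3, obese midpoint 2, 3, 4 or 5, lean endpoint 3 or 5, or any of the 5 obese endpoint libraries.

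Gclm, the modifier subunit that makes the ligase more efficient (ENSMUSG00000028124, mm10 chr3:122245557-122269984, plus strand, GC content 42.1%), had the lowest level per kilobase. It was at 13.9, 17, 21.6 and 15.5 CPM in lean midpoint and 20.7, 6.86, 10.5, 15.2 and 11.8 CPM in obese midpoint libraries. At endpoint it was at 37.0, 25.1, 48.7 and 38.2 CPM in lean and 44.1, 26.6, 39.0, 46.3 and 41.3 CPM in obese libraries. Diets overlapped at both times and the times did not overlap. Gclm rose 2.19-fold in lean hosts (log2 1.13 ± 0.28, edgeR adjusted p = 0.00532) and 3.03-fold in obese hosts (log2 1.60 ± 0.25, adjusted p = 1.7e-05). Both rises were below the medians of all genes with up to 45% GC, which were 1.22 and 2.18. With GC and length taken out, Gclm stood at -0.03 in lean hosts (adjusted p = 0.901) and fell by 0.50 on the log2 scale in obese hosts (adjusted p = 0.00204). Relative to genes of like GC content and length, Gclm thus fell in obese hosts and did not pass in lean hosts, whereas Gclc rose in both. The midpoint diet difference of Gclm was -0.39 ± 0.26 (edgeR adjusted p = 0.249), passed without obese midpoint replicate 1 (adjusted p = 0.0426), and was 0.33 after the correction (adjusted p = 0.0994).

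Gsr encodes glutathione reductase, which returns oxidized glutathione to its reduced form (ENSMUSG00000031584, mm10 chr8:33652523-33698163, plus strand, GC content 50.1%). Its group means were 195 ± 8.0 CPM (SD, n = 4) and 183 ± 35.4 CPM (n = 5) in lean and obese midpoint libraries and 210.4 ± 25.6 CPM (n = 4) and 181 ± 12.8 CPM (n = 5) in lean and obese endpoint libraries. Obese midpoint replicates 2 and 3, at 146 and 144 CPM, were the lowest of the 18. The Gsr log2 difference ranged from -0.22 between diets at endpoint to 0.11 with time in lean hosts, and none of the 5 comparisons passed, with or without the correction.

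The thioredoxin branch reduces peroxides through protein thiols. Txnrd1, the cytosolic thioredoxin reductase (ENSMUSG00000020250, mm10 chr10:82859206-82897724, plus strand, GC content 49.7%), was at 156, 183, 204 and 141 CPM in lean midpoint libraries and at 184, 52.2, 65.0, 149 and 129 CPM in obese midpoint libraries. At endpoint it was at 324, 194, 249.8 and 236 CPM in lean and 267, 187, 238, 226 and 195 CPM in obese libraries. Obese midpoint replicates 2 and 3 lay far below the others of their group, every obese endpoint library lay above every obese midpoint library, and the times overlapped in lean hosts. Txnrd1 rose 1.92-fold with time in obese hosts (log2 0.94 ± 0.27, edgeR adjusted p = 0.00353), and the corrected rise was 0.74 (adjusted p = 0.00573). Without obese midpoint 2, 3 and 5 the rise was 0.40 ± 0.21 (adjusted p = 0.108). In lean hosts the change was 0.55 ± 0.30 (adjusted p = 0.151). In the fit without obese midpoint 2, 3 and 5 it was 0.55 ± 0.17 and passed (adjusted p = 0.0174). At midpoint the diet difference was -0.56 ± 0.28 (adjusted p = 0.121), and passed without obese midpoint replicate 1 (-0.79, adjusted p = 0.0203).

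Srxn1, sulfiredoxin, repairs overoxidized peroxiredoxins (ENSMUSG00000032802, mm10 chr2:152105516-152111376, plus strand, GC content 53.3%). It was at 168, 145, 168 and 161 CPM in lean midpoint libraries and at 176, 179.8, 227, 184 and 171 CPM in obese midpoint libraries. All 5 obese libraries lay above all 4 lean libraries, by a small margin. The log2 difference was 0.23 ± 0.14 (edgeR adjusted p = 0.202), against a median of 0.26 for genes with 50% to 55% GC, and 0.06 after the correction. At endpoint Srxn1 lay between 143 and 207 CPM in both hosts together. Its change with time was 0.19 ± 0.15 in lean hosts (adjusted p = 0.313) and -0.12 ± 0.13 in obese hosts (adjusted p = 0.432). Relative to genes of like GC and length, whose class had medians of -0.24 and -0.54, Srxn1 rose in both hosts (corrected 0.51, adjusted p = 0.0121, and 0.42, adjusted p = 0.00651).

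Prdx1 is an abundant peroxiredoxin that removes hydrogen peroxide (ENSMUSG00000028691, mm10 chr4:116685544-116700822, plus strand, GC content 42.3%). Lean libraries were tightly grouped, from 251 to 274 CPM at midpoint and from 248 to 272 CPM at endpoint. Obese libraries spread from 268 to 372 CPM at midpoint and from 197 to 334 CPM at endpoint. Prdx1 did not pass in any of the 5 comparisons as fitted, with a log2 change of -0.02 ± 0.16 with time in lean hosts (edgeR adjusted p = 0.932) and -0.11 ± 0.15 in obese hosts (adjusted p = 0.499). Genes with up to 45% GC had medians of 1.22 and 2.18 in these 2 comparisons, so Prdx1 lay far below its class. After the correction it fell by 0.93 in lean hosts (adjusted p = 0.0135) and by 2.00 in obese hosts (adjusted p = 1.4e-06), and was higher in obese hosts at midpoint (0.97, adjusted p = 0.0326).

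Nqo1, NAD(P)H quinone dehydrogenase, is a widely used readout of NRF2 activity (ENSMUSG00000003849, mm10 chr8:107388225-107403206, minus strand, GC content 46.7%). At midpoint it was at 11.4, 13.1, 14.2 and 11.2 CPM in lean libraries and at 20.2, 15.5, 20.5, 16.3 and 17.3 CPM in obese libraries. At endpoint it was at 10.6, 16.2, 32.7 and 18.9 CPM in lean and 24.2, 10.1, 15, 16.6 and 10.4 CPM in obese libraries. All obese midpoint libraries lay above all lean midpoint libraries, opposite in order to Nfe2l2, and the diets overlapped at endpoint, where the levels spread widest. The midpoint difference of Nqo1 did not pass as fitted (log2 0.52 ± 0.28, edgeR adjusted p = 0.144). Its GC class had a median of -0.39, and the corrected difference was 0.97 (adjusted p = 0.0373). With time Nqo1 changed by 0.65 ± 0.29 in lean hosts (adjusted p = 0.0907), which passed without lean endpoint replicate 1 (0.82, adjusted p = 0.0446). In obese hosts it changed by -0.23 ± 0.26 (adjusted p = 0.424), and by -1.10 after the correction (adjusted p = 0.00119). Its interaction was -0.89 ± 0.39 (adjusted p = 0.129), and -1.38 corrected (adjusted p = 0.0881).

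Gpx4 encodes the glutathione peroxidase that protects membranes from ferroptosis, an iron-dependent cell death (ENSMUSG00000075706, mm10 chr10:80047166-80056439, plus strand, GC content 60.2%). It was at 11.8, 10.6, 10.7 and 16.3 CPM in lean midpoint and 15.6, 32.6, 27.3, 14.8 and 26.3 CPM in obese midpoint libraries. At endpoint it was at 5.26, 12.9, 11 and 9.58 CPM in lean and 7.3, 10.7, 8.65, 11.1 and 7.54 CPM in obese libraries. Obese midpoint replicates 2, 3 and 5, the libraries of steepest GC trend, were the highest of the 18, and replicates 1 and 4 overlapped the lean libraries. The midpoint difference was 1.88-fold (log2 0.91 ± 0.27, edgeR adjusted p = 0.0306), with a class median of 0.62 and a corrected value of 0.26 (adjusted p = 0.271). It no longer passed when lean midpoint replicate 1 (adjusted p = 0.0558), 2 (0.114) or 3 (0.129) was left out, nor without obese midpoint replicate 2 (0.0929) or 3 (0.0907). In obese hosts Gpx4 fell to 0.39 times its midpoint level (log2 -1.36 ± 0.25, adjusted p = 8.5e-05), with a class median of -1.09 and a corrected value of -0.23 (adjusted p = 0.196). Without obese midpoint 2, 3 and 5 the change was -0.77 ± 0.27 (adjusted p = 0.0262). In lean hosts the change was -0.35 ± 0.28 (adjusted p = 0.337). The interaction was -1.01 ± 0.38 (adjusted p = 0.103), and passed without obese midpoint replicate 1 (adjusted p = 0.027).

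**Figure D2:**
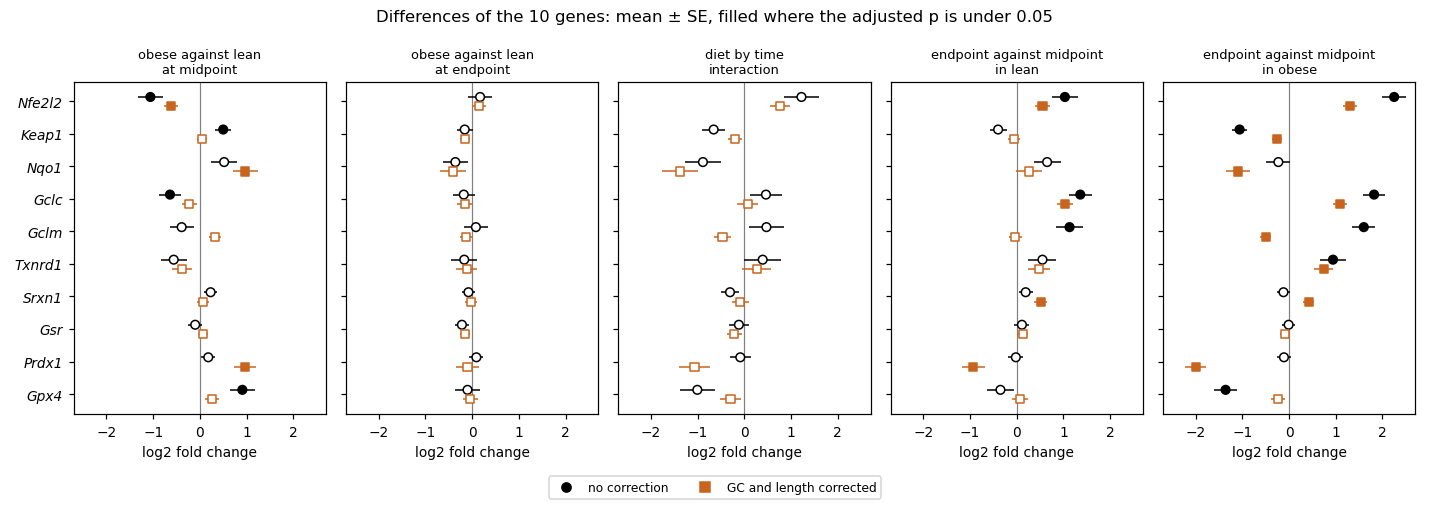
Log2 fold change ± SE of the 10 genes in the 5 comparisons (columns), as fitted (circles) and after the GC and length correction (squares), filled where the edgeR adjusted p is under 0.05. Nfe2l2 and Gclc keep a filled rise with time in both hosts under both readings, Gclm crosses 0 after the correction, and no symbol is filled for diet at endpoint or for the interaction.

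**Figure D3:**
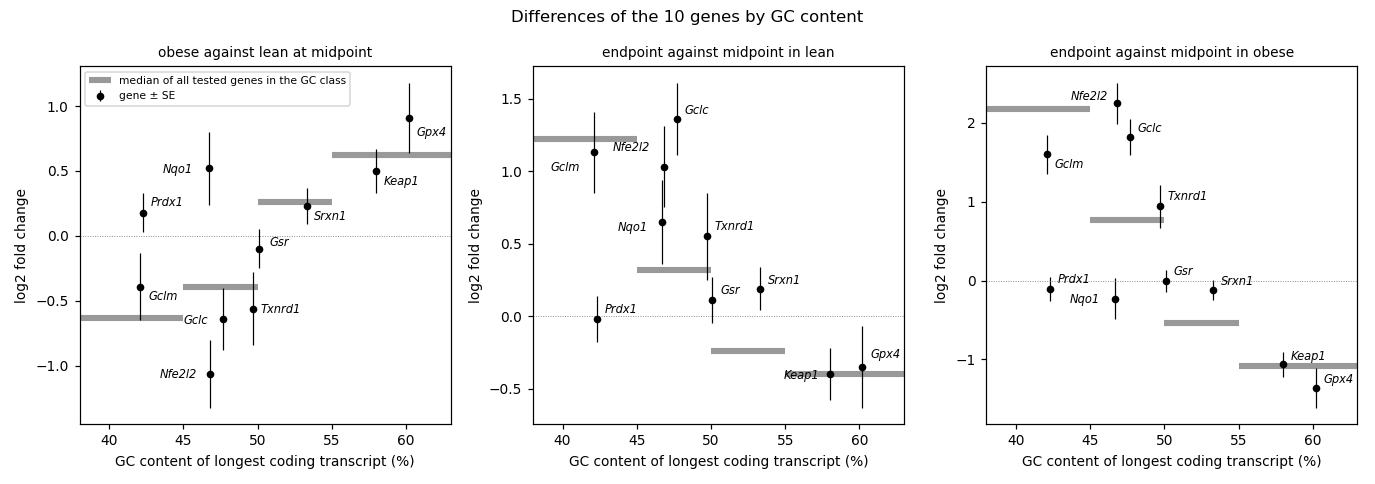
Log2 fold change ± SE of the 10 genes (points) against the GC content of their longest coding transcript in percent, with the median of all tested genes in 4 GC classes (grey bars), for diet at midpoint and for time in lean and in obese hosts. Keap1 and Gpx4 lie near the bar of their class in all 3 panels, Nfe2l2 and Gclc lie beyond it in the direction of the trend, and Prdx1 lies above its class at midpoint and below it with time.

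At endpoint no gene of the set passed the test between diets. The log2 differences ran from -0.36 ± 0.27 for Nqo1 to 0.17 ± 0.26 for Nfe2l2, all with an edgeR adjusted p of 0.999, and the median of the 10 was -0.13 against 0.0 for all genes. In the whole table edgeR called 1 gene, DESeq2 called 13, and 800 genes had an unadjusted p under 0.05. For the interaction edgeR called 0 genes, DESeq2 called 1681, Nfe2l2 alone among the 10, and 5451 genes had an unadjusted p under 0.05. Without obese midpoint replicate 1 edgeR called 3 of the 10 genes for the interaction, Nfe2l2, Keap1 and Gpx4.

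Lists of related genes placed these 10 in their pathway. Some lists share genes, so their counts are not independent. Slc7a11, Gsta4, Gstm1, Gstp1 and Esd are among both the other targets and the glutathione genes. Fth1 is among both the other targets and the selenoprotein and ferroptosis genes. Their counts at midpoint are to be read against the 16.7% of all genes that were higher and the 12.8% that were lower in obese hosts. Of 16 partners and regulators of NRF2, 1 was higher and 1 lower. Sqstm1, an autophagy adaptor that binds KEAP1, was higher (log2 0.58 ± 0.19, edgeR adjusted p = 0.0348). Bach1, a repressor that competes for NRF2 sites, was lower (-0.65 ± 0.20, adjusted p = 0.0314), as Nfe2l2 was as fitted. After the GC and length correction neither Sqstm1 (0.35, adjusted p = 0.104) nor Bach1 (-0.10, adjusted p = 0.641) passed. Nfe2l2 did (-0.61, adjusted p = 0.0326). The list median was -0.18, against 0.0 for all genes. The corrected counts were 2 higher and 0 lower, against 7.23% and 3.17% of all genes.

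Of 27 other known NRF2 targets tested from a list of 32, 10 were higher in obese hosts at midpoint, 16 did not pass and 1, Ugdh, was lower (-1.11 ± 0.36, edgeR adjusted p = 0.0329; named after its value was seen), with a median of 0.57. The share that was higher lay above the 16.7% of all genes. G6pdx and Pgd, which make NADPH in the pentose phosphate pathway, were higher by 0.51 ± 0.14 and 0.87 ± 0.23 (both adjusted p = 0.0304). G6pdx averaged 408 ± 40.2 CPM in lean (SD, n = 4) and 579 ± 87.3 CPM in obese (n = 5) midpoint libraries, with no overlap. The heme transporter Slc48a1 (0.97 ± 0.22) and the biliverdin reductase Blvrb (0.87 ± 0.22) were also higher (both adjusted p = 0.0304). With GC and length taken out, 5 of the 27 were higher and 0 lower, against 7.23% and 3.17% of all genes. The median was then 0.39, against 0.06 for all genes. Blvrb did not pass after that correction (0.29, edgeR adjusted p = 0.165), while G6pdx (0.42), Pgd (0.67) and Slc48a1 (0.52) did.

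Genes that make, use or recycle glutathione showed 6 higher and 0 lower of 30 tested at midpoint, with a median of 0.51; the share that was higher lay near the 16.7% of all genes. The 6 included Gss, the enzyme that completes glutathione synthesis (0.69 ± 0.19), Gsto1, an omega-class glutathione transferase (0.57 ± 0.16), the 5-oxoprolinase Oplah (0.99 ± 0.26) and the mitochondrial glutaredoxin Glrx5 (0.85 ± 0.24), each with an edgeR adjusted p of 0.0304. The correction again gave 6 higher and 0 lower, against 7.23% and 3.17% of all genes, with a median of 0.46. Gss (0.39, edgeR adjusted p = 0.0729) and Oplah (0.46, adjusted p = 0.0724) did not pass after it. Gsto1 (0.53, adjusted p = 0.0326) and Glrx5 (0.55, adjusted p = 0.0498) did. Of 20 thioredoxin, peroxiredoxin, superoxide dismutase and related genes, 9 were higher, a share above the 16.7% of all genes, and 1 was lower, with a median of 0.53. Prdx2 (0.74 ± 0.21, adjusted p = 0.0304), Prdx6 (0.66 ± 0.21, adjusted p = 0.0314) and the methionine sulfoxide reductase Msra (0.71 ± 0.19, adjusted p = 0.0304) were higher, and Msrb3, another such reductase, was lower (-1.54 ± 0.29, adjusted p = 0.0304). The corrected counts were 7 higher and 1 lower, with a median of 0.24. Among 16 genes of selenoprotein synthesis and ferroptosis, 3 were higher and 2 lower, shares near those of all genes, and 0 passed after the correction. They included the ferritin heavy chain Fth1 (0.78 ± 0.26, adjusted p = 0.0356) and its autophagy receptor Ncoa4 (-1.05 ± 0.25, adjusted p = 0.0304).

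With time in obese hosts more of these genes fell than rose in 3 of the lists, in a comparison in which 36.1% of all genes fell and 37.8% rose. Of the 27 other NRF2 targets, 14 fell and 4 rose, with a median of -0.53. Of the 30 glutathione genes 18 fell and 3 rose (median -0.84), and of the 20 thioredoxin and peroxiredoxin genes 14 fell and 3 rose (median -0.94). As fitted all genes had a median of 0.0. After the correction the counts were 9 fallen and 3 risen, 20 fallen and 1 risen, and 11 fallen and 2 risen. Among all genes 31.8% then fell and 24.6% rose. The corrected list medians were -0.28, -0.69 and -0.35 in the same order, against -0.09 for all genes. The midpoint and the time comparison share the obese midpoint libraries, so their opposite signs are not independent of each other.

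Gstt1, a theta-class glutathione transferase, was among the glutathione genes that fell in obese hosts (log2 -2.57 ± 0.29, edgeR adjusted p = 6.8e-07; -1.69 corrected). It averaged 26.3 ± 9.81 CPM (SD, n = 5) at midpoint and 4.42 ± 0.859 CPM (n = 5) at endpoint. Gss fell by 1.34 (adjusted p = 3.6e-06) and Prdx2 fell by 1.52 (adjusted p = 2.2e-06), and both also passed after the correction, at -0.86 and -1.61. Slc7a11, the cystine importer that supplies glutathione synthesis, rose instead (2.85 ± 0.42, adjusted p = 9e-06), from 3.75 ± 1.41 to 26.9 ± 10.6 CPM (n = 5 each), but stood at 0.06 after the correction (adjusted p = 0.898). Chac2, which degrades glutathione, rose by 2.88 ± 0.32 (adjusted p = 5.3e-07), and by 0.70 corrected. Among 16 partners 7 rose and 4 fell, against 37.8% and 36.1% of all genes. After the correction 9 of them rose and 4 fell, against 24.6% and 31.8% of all genes. Cul3, the ligase scaffold that works with KEAP1, rose by 2.99 ± 0.36 (adjusted p = 1e-06; 0.55 corrected), Bach1 by 2.40 ± 0.20 (adjusted p = 2.6e-07; 1.11 corrected) and the NRF2 relative Nfe2l3 by 2.86 ± 0.47 (adjusted p = 2.1e-05; 2.72 corrected). Of the 16 selenoprotein and ferroptosis genes 7 rose and 5 fell, and 4 rose and 4 fell after the correction.

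With time in lean hosts the counts were 5 risen and 0 fallen of 16 partners, 4 and 1 of 27 other targets, 2 and 7 of 30 glutathione genes, 1 and 5 of 20 thioredoxin and peroxiredoxin genes, and 4 and 3 of 16 selenoprotein and ferroptosis genes. Among all genes 21.4% rose and 9.5% fell, so the other targets and the thioredoxin and glutathione genes had a smaller share risen than all genes. The glutathione, thioredoxin and selenoprotein lists had a larger share fallen. After the correction the counts risen and fallen were 6 and 3, 2 and 2, 0 and 10, 1 and 3, and 1 and 1, in the same order of lists. Among all genes 11.7% then rose and 11.3% fell. Bach1 (1.56 ± 0.22, edgeR adjusted p = 0.00019) and Gstt1 (-1.83 ± 0.32, adjusted p = 0.00043) kept their direction after the correction, at 0.89 and -1.43. Slc7a11 rose by 2.10 ± 0.46 (adjusted p = 0.00223) and stood at 0.53 corrected (adjusted p = 0.342). At endpoint and for the interaction 0 genes of these 5 lists were called by edgeR; for the interaction DESeq2 called 1 of 16 partners, 3 of 27 other targets, 1 of 30 glutathione genes, 2 of 20 thioredoxin and peroxiredoxin genes and 3 of 16 selenoprotein and ferroptosis genes, against 10.3% of all genes.

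**Figure D4:**
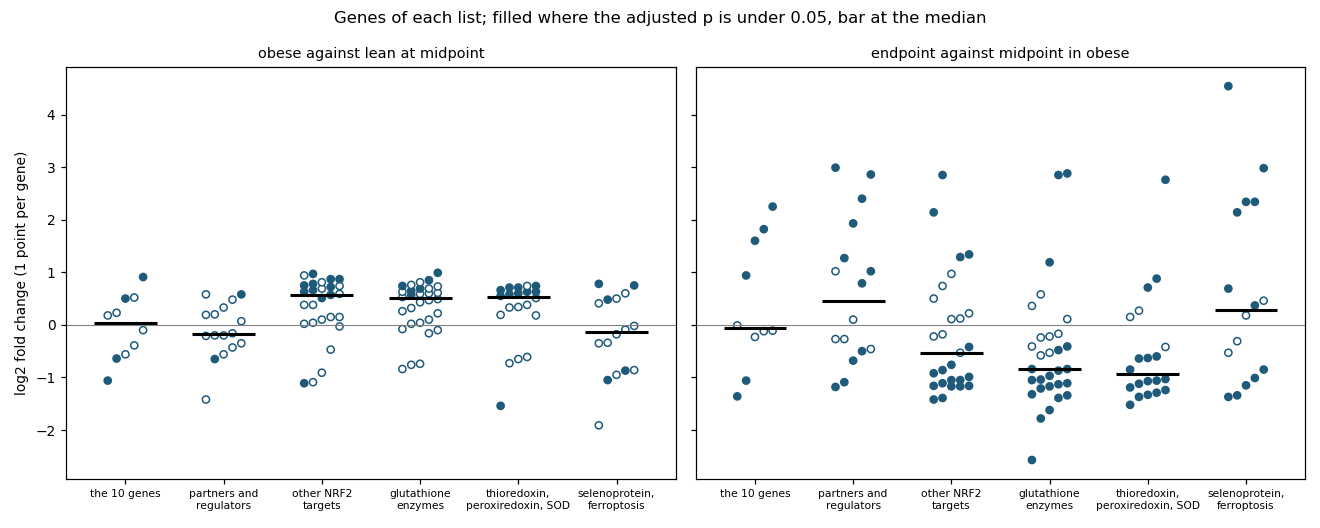
Log2 fold change of each tested gene (1 point per gene) in the 10-gene set and the 5 lists, for diet at midpoint (left) and time in obese hosts (right), filled where the edgeR adjusted p is under 0.05, with a bar at the list median. The medians of the target, glutathione and thioredoxin lists lie above 0 at midpoint (0.57, 0.51 and 0.53) and below 0 with time (-0.53, -0.84 and -0.94), while those of the 10 genes lie near 0 in both.

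Across the 18 libraries the genes whose log2 CPM followed Nfe2l2 most closely, among 8253 genes with a mean of at least 10 CPM, were Dnajb9 (Pearson r = 0.993), Csnk1a1 (0.992) and Hspa5 (0.991). Dnajb9 and Hspa5 are chaperones of the endoplasmic reticulum. Their GC contents were 40.6%, 43.3% and 45.6%, and the libraries share the GC trend, so the likeness is a description. For Nqo1 the closest were Abhd5 (0.701), Fdx1 (0.622) and Esd (0.62), so no gene tracked Nqo1 as closely as these tracked Nfe2l2.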

How the data were processed

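The authors deposited 1 table of whole-number counts per gene, not normalized, with Ensembl identifiers and positions per the file headers. TopHat, DESeq and mm10 appear in the submitters' processing notes. For the counting tool, the annotation and the strand setting, nothing is given in the sources used here. Replicates are separate tumors per the labels' protocols. GENCODE symbols matched 37607 of 39017 identifiers. Lean endpoint replicate 4 was left out by the rule that defines the gene set.

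Counts of 18 libraries were fitted in R 4.3.3 with edgeR 4.0.16 (filterByExpr, TMM, quasi-likelihood test, 1 mean per group), with Benjamini-Hochberg adjustment over 16352 genes at 0.05, in 5 contrasts. CPM are counts scaled to the TMM library size (prior count 2 for log2 CPM). Length for CPM per kilobase is that of the deposited table. The correction used offsets from a spline (4 degrees of freedom) of each library's log2 CPM, relative to the mean of all libraries, on GC content and on length, for 16122 genes with both. Alternatives were RLE scaling, DESeq2 1.42.0, no filter, at least 5 CPM in 4 libraries, the compared groups alone, a replicate block, a leukocyte covariate, no mitochondrial or structural RNA genes, and each library left out. GC correction alone and leaving out obese midpoint 2, 3 and 5 were added after seeing the data. The latter keeps only replicates 1 and 4 in the obese midpoint group. The scripts were tested on simulated data. The 10 genes and the lists were chosen with earlier results of these data known. All 10 genes are described in every contrast, up to 4 genes with the smallest p are named per list and contrast, and 3 genes nearest in profile are named for Nfe2l2 and Nqo1; from those named per list the text describes a part. Promoter sequences are from RefSeq, build GRCm38.p6.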

Additional observations from a re-analysis of the deposited data

Results flagged for a closer look

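In 2 of 40 gene and group combinations, a library stood apart from the rest of its group by Dixon's criterion, which chance meets in about 1 in 20 groups. Both were obese midpoint replicate 3. There Prdx1 was at 372 CPM, with the nearest of the other 4 libraries at 284 CPM (gap over range 0.848), and Srxn1 was at 227 CPM, with the nearest at 184 CPM (gap over range 0.772). This library also had the 2nd steepest GC slope of the 18, 1.24, and the lowest total, 44174080 counts. The part of either in these values was not tested.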

How the results depend on the processing

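Among 540 values under other settings (single libraries left out aside), 464 kept direction and side of the threshold, 26 lost the threshold, 17 gained it and 33 changed direction. The midpoint count of 4 genes became 0 with the compared groups alone, with the leukocyte covariate and without obese midpoint 2, 3 and 5, and lay between 0 and 6 with 1 library left out. The interaction count of 0 became 1 with DESeq2 and 0 to 3 with 1 library left out. The count of 3 with time in lean hosts became 5 without obese midpoint 2, 3 and 5, with Keap1 and Txnrd1 added. No lean library was left out there, and all groups share an estimate of the spread. The lean log2 value of Keap1 was -0.4 as fitted and -0.41 in that fit, and that of Txnrd1 was 0.55 in both. Their SEs went from 0.18 to 0.14 and from 0.3 to 0.17. The cause of each change in the counts was not tested. Replicate numbers do not pair the tumors (correlations of same-numbered deviations from -0.403 to 0.551). With the replicate number as a block the midpoint count was 2, with 4392 genes called, and Prdx1 with time in lean hosts turned to 0.05; the block moved the number of the 10 genes called by over 1.5 times in no other comparison.

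Directions that changed were these, as log2 values. With GC and length corrected, at midpoint Gclm was 0.33 and Gsr 0.06; at endpoint Gclm was -0.14 and Prdx1 -0.10; the interaction of Gclm was -0.47; with time in lean hosts Gclm was -0.03 and Gpx4 0.07; with time in obese hosts Gclm was -0.50 and Srxn1 0.42. With GC alone corrected, at midpoint Keap1 was -0.03, Gclm 0.25 and Gsr 0.03; at endpoint Gclm was -0.12 and Prdx1 -0.14; the interaction of Gclm was -0.37; with time Keap1 was 0.0 in lean hosts, and Gclm -0.31 and Srxn1 0.35 in obese hosts. Without obese midpoint 2, 3 and 5, Gclm was 0.09 and Gsr 0.14 at midpoint, and the interactions of Gclm and Txnrd1 were -0.01 and -0.15. The interaction of Prdx1 was 0.01 with RLE, 0.03 with no filter, 0.01 with DESeq2 and 0.01 without mitochondrial genes. Prdx1 with time in lean hosts was 0.03 with the leukocyte covariate. Gsr with time in obese hosts was 0.05 with RLE, 0.05 with no filter, 0.04 with the stricter filter, 0.05 with DESeq2 and 0.08 without mitochondrial genes. With 1 library left out, values ranged from -0.59 to 0.0 (Nqo1), -0.05 to 0.24 (Gclm) and -0.30 to 0.09 (Gpx4) at endpoint, from -0.17 to 0.03 for the interaction of Prdx1, and from -0.10 to 0.05 for Gsr with time in obese hosts. None of these 5 passed the threshold in any of these fits.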
